A study of Homo sapiens with 2 samples.

Results

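The 37 genes described here build and regulate the contractile actin cytoskeleton and its adhesion plaques. They were chosen by symbol from the 36601 genes of the feature list, and every symbol was found there. Actin monomers polymerise into filaments, myosin II pulls on those filaments, and adhesion plaques tie them to the receptors that hold a cell to its surroundings. In cultured epithelial cells this system forms stress fibres and the cell cortex, and it is rebuilt as a cell rounds up, divides and spreads again.

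The data are single-cell RNA profiles of A549, a human lung adenocarcinoma cell line labelled epithelial, with 1 library per group. The Squashed library came from A549 cells confined with polydimethylsiloxane (PDMS) micropillars, and the Control library from A549 cells kept unconfined in 2D. Both were sorted live for cells that had lost a chromosome reporter, about 1 per 500 cells, after 48 h of recovery for the confined cells. Both libraries therefore hold reporter-negative cells, the labels give them 1 batch, and they do not name the reporter's chromosome.

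After filtering, 1930 Squashed and 1906 Control cells remained, with 23328323 and 27482392 UMIs (unique molecular identifiers, each standing for 1 captured RNA molecule). The median cell had 9330.5 UMIs and 1790.0 genes in Squashed, against 12458.5 UMIs and 2598 genes in Control. The libraries shared 4 deposited barcodes, and 2 after filtering. Of the epithelial markers, KRT8 had 1168 CPM (UMIs of the gene per 1000000 UMIs of the library) in Squashed and 796 CPM in Control cells and KRT18 had 557 and 1691 CPM, while EPCAM, KRT19 and CDH1 lay under 20 CPM in both libraries. Of the markers of other cell types, 7 muscle genes summed to 11.4 CPM in Squashed and 9.32 CPM in Control cells, 6 fibroblast genes to 6.39 and 7.82 CPM, 5 immune genes to 0.772 and 0.837 CPM and 3 endothelial genes to 0.0429 and 0.0728 CPM. PTPRC, CD3D and CD3E had 0 UMIs in both libraries.

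Many genes of the actin cytoskeleton are known targets of serum response factor (SRF), which binds the CArG box and whose coactivators sense free actin monomer. The promoters of FLNA and TPM1 are shown as examples with and without a box among the genes past 1.5-fold lower in Squashed cells, and that of ACTG1 because it is the partner of ACTB. The search was chosen after the values had been seen. The RefSeq windows run from 250 bases before to 50 bases after a transcript start that the table gives on GRCh38.p14, 5′ to 3′ on the gene's strand. For TPM1 and ACTG1 that start lies inside the gene's GENCODE span, so upstream starts of these genes were not searched. They are FLNA at chrX:154374585-154374884 on the minus strand, TPM1 at chr15:63048239-63048538 on the plus strand and ACTG1 at chr17:81512750-81513049 on the minus strand. Capitals mark a CArG box, searched as CC, then 6 bases that are each A or T, then GG, a pattern that is its own reverse complement.
FLNA: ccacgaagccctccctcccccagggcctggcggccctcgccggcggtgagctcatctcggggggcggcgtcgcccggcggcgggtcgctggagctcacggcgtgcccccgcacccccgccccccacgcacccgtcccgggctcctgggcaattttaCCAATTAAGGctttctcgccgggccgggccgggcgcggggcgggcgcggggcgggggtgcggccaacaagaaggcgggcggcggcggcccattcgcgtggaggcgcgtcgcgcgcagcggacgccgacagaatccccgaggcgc
TPM1: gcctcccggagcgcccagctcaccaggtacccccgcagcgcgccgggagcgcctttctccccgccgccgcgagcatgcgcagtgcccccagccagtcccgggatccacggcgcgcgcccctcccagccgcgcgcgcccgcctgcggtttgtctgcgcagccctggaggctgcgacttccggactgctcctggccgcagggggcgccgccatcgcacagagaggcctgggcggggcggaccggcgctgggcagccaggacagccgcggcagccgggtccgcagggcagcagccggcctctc
ACTG1: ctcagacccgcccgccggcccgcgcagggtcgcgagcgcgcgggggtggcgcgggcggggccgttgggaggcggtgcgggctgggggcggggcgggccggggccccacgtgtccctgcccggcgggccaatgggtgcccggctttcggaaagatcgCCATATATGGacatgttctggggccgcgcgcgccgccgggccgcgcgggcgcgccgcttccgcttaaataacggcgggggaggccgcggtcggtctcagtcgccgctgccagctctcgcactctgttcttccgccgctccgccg
FLNA and ACTG1 each held 1 box, whose first base lay 94 bases before the start in both genes, and no match stood in the TPM1 window. Of the genes past 1.5-fold with a window, FLNA held a box, and TPM1, VASP and PFN1 did not. TPM4, ACTN1 and ROCK2 also held 1 each. A box was thus found for 5 of the 34 genes with a window (14.7%), where 1.60% of 27305 genes held one. Counted over windows, since some genes have several, the shares were 8.77% of 57 and 1.29% of 35116. ACTB, MYL9 and TAGLN had no entry. A match describes letters and is not a measured binding site.

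As a list, the actomyosin and plaque genes differed little between the libraries. Of the 37 genes, 35 reached 20 CPM in either library and are called measured, and MYL9 and TAGLN did not. In Squashed cells 4 of the 35 (11.4%) were lower by 1.5-fold or more, where 12.4% of all 4307 measured genes were. A single gene (2.86%) was higher by that much, where 3.48% of all were. At 2-fold, 1 gene was lower, where 5.11% of all were, and 0 were higher, where 1.09% were. These shares lie near or below the background. The median log2 ratio of Squashed over Control was -0.01 for the 35 genes and -0.14 for all measured genes. For the median of the 35 genes the ranks of the ratios gave a 95% interval of -0.16 to 0.08. It treats the genes as independent and leaves out counting error. The quartiles of the ratios over the 35 genes were -0.19 and 0.11. The gap of 0.12 between the medians becomes 0.07 with a stricter cell filter (at least 3000 UMIs, 1000 genes and at most 15% mitochondrial UMIs). It becomes 0.01 with a minimum of 50 CPM. Summed, the 37 genes took 2.49% of UMIs in Squashed and 2.58% in Control cells, a log2 ratio of -0.05 (-0.06 to -0.05) that becomes 0.10 with TMM factors, which add 0.15 to every log2 ratio. Without ACTB the shares were 2.30% and 2.29%.

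With 1 library per group no test was made. All ratios compare 2 libraries rather than 2 conditions, and the intervals in parentheses are exact 95% intervals of counting error alone. The genes past 1.5-fold were TPM1, VASP, ACTB and FLNA, lower in Squashed cells, and PFN1, higher. VASP, ACTB, FLNA and PFN1 have transcripts with over 55 and up to 65% G and C bases, and TPM1 has 50.9%. In that range 192 of all 882 measured genes were past 1.5-fold lower and 35 higher, and 3 of 13 listed genes were lower and 1 higher. The part of base content in these ratios was not tested. On GRCh38, TPM1 (ENSG00000140416) lies on chromosome 15 at 63042620 to 63071915, VASP (ENSG00000125753) on chromosome 19 at 45506579 to 45526989 and ACTB (ENSG00000075624) on chromosome 7 at 5526409 to 5563902. FLNA (ENSG00000196924) lies on chromosome X at 154348524 to 154374634 and PFN1 (ENSG00000108518) on chromosome 17 at 4945652 to 4949061.

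**Figure D1:**
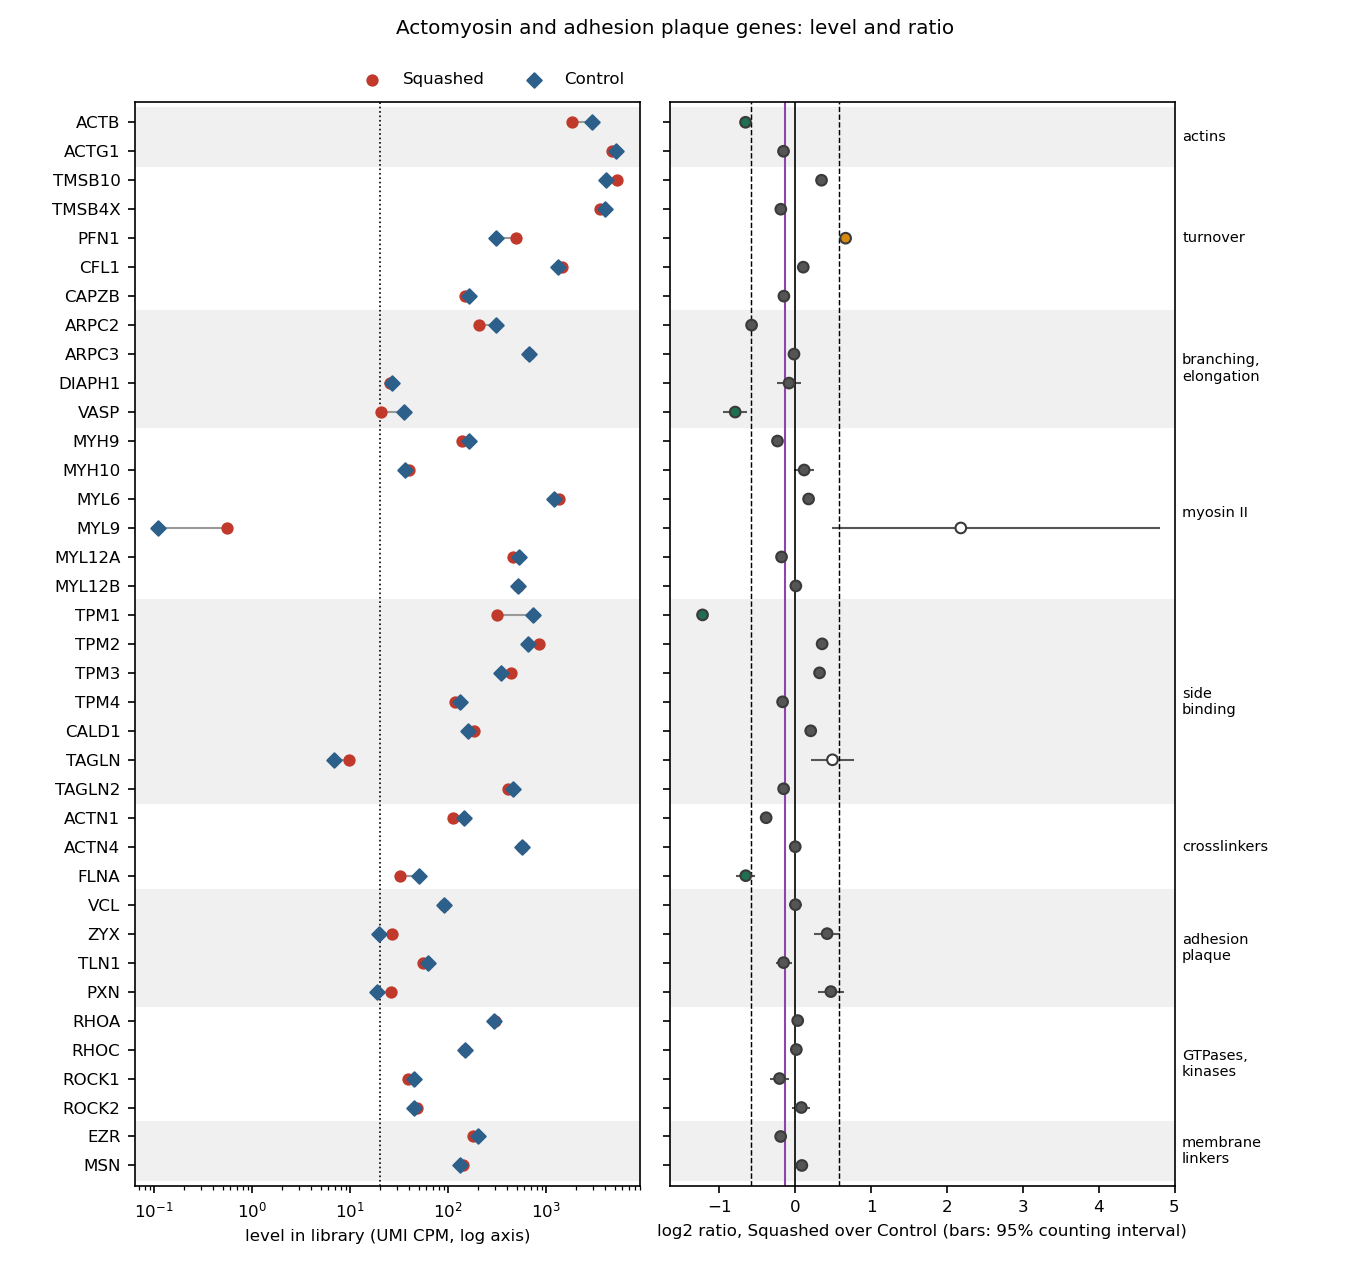
For each of the 37 genes, the left panel gives the level in Squashed and Control cells in CPM on a log axis and the right panel the log2 ratio of Squashed over Control with its 95% counting interval, dashed lines at 1.5-fold and a line at the median of all measured genes, -0.14. TPM1 lies farthest below 0 among measured genes, VASP, ACTB and FLNA also pass the lower line, and PFN1 alone among measured genes passes the upper one.

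The cytoplasmic actins differed in their ratios. ACTB, the beta-actin enriched in stress fibres and at the moving edge, had 1850.4 CPM in Squashed and 2910.0 CPM in Control cells (log2 ratio -0.65, -0.67 to -0.64; -0.50 and no longer past 1.5-fold with TMM factors). ACTG1, the gamma-actin, had 4677 CPM in Squashed and 5199 CPM in Control cells (-0.15, -0.16 to -0.14), close to the median of all genes. ACTB gave 28.3% of the UMIs of the pair in Squashed cells (28.1 to 28.6), against 35.9% in Control cells (35.7 to 36.1). GENCODE lists 12 pseudogenes of ACTB and 21 of ACTG1, and none of them is in the feature list, so the single values of both genes carry an uncertainty from reads shared with copies.

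Of the genes that bind monomers or turn filaments over, PFN1 was higher. PFN1 encodes profilin 1, which feeds actin monomers to growing filament ends, and had 490.4 CPM in Squashed and 309 CPM in Control cells (0.67, 0.63 to 0.71). Its ratio was 0.58 in cells thinned to 2000 UMIs and 0.55 as a mean of per-cell CPM, both just short of 1.5-fold. Its relative PFN2 had 133 CPM in Squashed and 138 CPM in Control cells (-0.06, -0.13 to 0.01). GENCODE lists 10 pseudogenes of PFN1.

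The thymosins, which hold actin monomers in reserve, had ratios of opposite sign. TMSB10 had 5250 CPM in Squashed and 4124 CPM in Control cells (0.35, 0.34 to 0.36). TMSB4X had 3519 CPM in Squashed and 4009 CPM in Control cells (-0.19, -0.20 to -0.18). TMSB10 gave 59.9% of the UMIs of the pair in Squashed cells and 50.7% in Control cells. With 461 nt, TMSB10 is the single gene of the list among transcripts of up to 500 nt, whose 60 measured genes had a median log2 ratio of 0.52; the part of length in its ratio was not tested. Cofilin 1 (CFL1), which severs old filaments, and CAPZB, a subunit of the barbed-end cap, had log2 ratios of 0.11 and -0.15.

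Among genes of branching and elongation, VASP was lower and ARPC2 lay just inside the threshold. VASP, which extends filaments at plaques and leading edges, had 20.7 CPM in Squashed and 35.7 CPM in Control cells (-0.79, -0.95 to -0.63). ARPC2, a core subunit of the branching Arp2/3 complex, had 205 CPM in Squashed and 305 CPM in Control cells (-0.57, -0.62 to -0.52). It passed 1.5-fold without a cell filter (-0.59), with the stricter cell filter (-0.59) and in cells thinned to 2000 UMIs (-0.60). The same held as a mean of per-cell CPM (-0.61) and in cells called G2/M (-0.69). ARPC2 stayed inside 1.5-fold with TMM factors (-0.42) and with doublets left out (-0.57). It also did with mitochondrial and ribosomal protein genes (-0.51) or transcripts up to 500 nt (-0.53) left out of the total. Cells called G1 (-0.43) or S (-0.54) were inside too, as were cells with fewest, middle and most genes (-0.45, -0.54 and -0.56). ARPC3, another subunit, had 663 CPM in Squashed and 670 CPM in Control cells (-0.01, -0.05 to 0.02). The formin DIAPH1, an effector of RhoA that grows unbranched filaments, had a log2 ratio of -0.08 (-0.24 to 0.08).

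The measured myosin II genes all lay within 1.5-fold. MYH9 and MYH10, the heavy chains of myosin IIA and IIB, had log2 ratios of -0.23 and 0.12, and the essential light chain MYL6 had 0.18. The regulatory light chain MYL12A had 462 CPM in Squashed and 523 CPM in Control cells (-0.18, -0.21 to -0.14). MYL12B, its near-identical copy on chromosome 18, had 514 CPM in Squashed and 511 CPM in Control cells (0.01, -0.03 to 0.05). Reads that match both copies make the single values uncertain, and their sum had a log2 ratio of -0.08 (-0.11 to -0.06), which becomes 0.07 with TMM factors. MYL9, the regulatory light chain typical of smooth muscle, had 13 UMIs in Squashed and 3 UMIs in Control cells (2.18, 0.49 to 4.80).

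The tropomyosins, coiled coils along the filament that regulate access of myosin and cofilin, differed in make-up. TPM1 was 2.33-fold lower, with 315 CPM in Squashed and 733 CPM in Control cells (-1.22, -1.26 to -1.18). TPM2 had 845 CPM in Squashed and 660 CPM in Control cells (0.36, 0.33 to 0.39). TPM3 had 433 CPM in Squashed and 346 CPM in Control cells (0.32, 0.28 to 0.36). TPM4 was closer to level, with 117 CPM in Squashed and 131 CPM in Control cells (-0.16, -0.24 to -0.09). The sum of the 4 genes had a log2 ratio of -0.13 (-0.15 to -0.11), which becomes 0.02 with TMM factors. TPM1 gave 18.4% of tropomyosin UMIs in Squashed cells (18.0 to 18.8) and 39.2% in Control cells (38.8 to 39.6). TPM2 gave 49.4% in Squashed and 35.3% in Control cells, and TPM3 gave 25.3% and 18.5%. These shares do not depend on the scaling between libraries.

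Of the other genes that bind along filaments, caldesmon (CALD1) and the transgelin TAGLN2 had log2 ratios of 0.21 and -0.15. TAGLN, the transgelin typical of smooth muscle, had 227 UMIs in Squashed and 190 UMIs in Control cells. Of the crosslinkers, filamin A (FLNA), which joins filaments into networks and binds integrins, had 32.4 CPM in Squashed and 50.9 CPM in Control cells (-0.65, -0.78 to -0.52). FLNA lay inside 1.5-fold with TMM factors (-0.50), without a cell filter (-0.38) and with mitochondrial and ribosomal protein genes left out of the total (-0.58). The alpha-actinin ACTN1 had 112 CPM in Squashed and 146 CPM in Control cells (-0.38, -0.45 to -0.31), and its paralog ACTN4 565 and 564 CPM (0.00, -0.03 to 0.04).

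The plaque genes were within 1.5-fold. The scaffold paxillin (PXN) had 25.9 CPM in Squashed and 18.7 CPM in Control cells (0.47, 0.30 to 0.64; 0.62 and past 1.5-fold with TMM factors). Zyxin (ZYX), a LIM protein of plaques and stress fibres, had 26.6 CPM in Squashed and 19.8 CPM in Control cells (0.42, 0.25 to 0.59). Vinculin (VCL) and talin (TLN1), which couple integrins to actin, had log2 ratios of 0.00 (-0.08 to 0.09) and -0.15 (-0.26 to -0.05). The GTPases RHOA and RHOC, which switch contraction on, had 0.03 and 0.02, and the kinases ROCK1 and ROCK2, their effectors, -0.20 and 0.08. EZR and MSN, which link filaments to the membrane, had -0.19 and 0.09.

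A further 99 genes of the pathway were listed by role, and 72 were measured. Of these, 10 (13.9%) were at least 1.5-fold lower, near the 12.4% of all measured genes, and 0 were that much higher, where 3.48% of all were; their median log2 ratio was -0.10. ARPC1B, a subunit of the Arp2/3 complex, had 61.3 CPM in Squashed and 149 CPM in Control cells (-1.28, -1.36 to -1.19). Its alternative ARPC1A had 87.7 CPM in Squashed and 74.6 CPM in Control cells (0.23, 0.14 to 0.32). ARPC1B thus gave 41.1% of the UMIs of that pair in Squashed cells and 66.6% in Control cells. ARPC5L, another Arp2/3 subunit, and WASF2 of the WAVE complex, which activates Arp2/3, were also lower, at -0.88 and -0.76. ARPC5, the paralog of ARPC5L, had -0.03 at 189 CPM in Squashed and 193 CPM in Control cells. The subunits ARPC4, ACTR3 and ACTR2 had -0.02, 0.12 and 0.26.

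Of the other plaque genes PDLIM1, a PDZ and LIM protein that binds alpha-actinin, had 48.9 CPM in Squashed and 142 CPM in Control cells (-1.53, -1.63 to -1.44). Focal adhesion kinase (PTK2) was lower at -0.75, and the LIM protein FHL2 had -0.52. Drebrin (DBN1), a filament binding protein, had 11.5 CPM in Squashed and 30.3 CPM in Control cells (-1.40, -1.60 to -1.20). Fascin (FSCN1), which bundles filaments in filopodia, was lower at -0.65, and LIMA1 had 0.28. Of the turnover genes the pointed-end cap TMOD3 was lower at -0.74, with the depolymerising factor DSTN at 0.39 and gelsolin (GSN) at -0.22. The calponin CNN3 was lower at -0.85, with the class I myosin MYO1E at -0.55. The scaffold IQGAP1 had 0.46 and the GTPase CDC42 0.11. SRF, MRTFA and MRTFB were below 20 CPM in both libraries.

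The ratios of several genes differed by cell cycle phase. Phases were called in cells thinned to 2000 UMIs from S and G2/M gene lists that hold none of the 37 genes. Of 1782 Squashed cells 45.5% were called G1, 5.05% S and 49.4% G2/M, against 35.5%, 3.84% and 60.7% of 1825 Control cells. In cells called G1, ACTB had 1578 CPM in Squashed and 1762 CPM in Control cells (-0.16, -0.19 to -0.13). In cells called G2/M it had 2053 CPM in Squashed and 3728 CPM in Control cells (-0.86, -0.88 to -0.84). The log2 ratio of G2/M over G1 for ACTB was 0.38 in Squashed cells (0.35 to 0.41) and 1.08 in Control cells (1.06 to 1.11).

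For TPM1, cells called G1 had 286 CPM in Squashed and 495 CPM in Control (-0.79, -0.86 to -0.73), and cells called G2/M had 329 CPM in Squashed and 880.1 CPM in Control (-1.42, -1.47 to -1.37). TPM2 was higher in Squashed cells called G1, with 1023 CPM against 601 CPM in Control cells (0.77, 0.72 to 0.81), and near level in G2/M, with 703 and 699 CPM (0.01, -0.03 to 0.05). TPM3 had log2 ratios of 0.76 in G1 and 0.21 in G2/M, ACTN4 of 0.35 and -0.16, ACTG1 of -0.01 and -0.22, and PFN1 of 0.90 and 0.57. For EZR the G2/M over G1 log2 ratio was close in the libraries, at 0.90 in Squashed cells (0.81 to 1.00) and 0.94 in Control cells (0.85 to 1.03).

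The G2/M over G1 log2 ratio was smaller in Squashed than in Control cells for 26 of the 35 genes (74.3%) and for 37.2% of all 4307 measured genes. The median difference, Squashed minus Control, was -0.22 over the 35 genes and 0.13 over all. This contrast was chosen after values by phase had been seen. Summed over the 37 genes, cells called G2/M had 25098 CPM in Squashed and 28487 CPM in Control (-0.18, -0.19 to -0.18). Cells called G1 had 24732 CPM in Squashed and 22195 CPM in Control (0.16, 0.15 to 0.16). The median log2 ratio of Squashed over Control of all genes measured in the same cells was -0.25 in G1 and -0.06 in G2/M. The ratio of ACTB lay above that median in G1 and below it in G2/M. The median Squashed cell called G1 showed 641 genes at 2000 UMIs and the median Control cell 819, against 825 and 857 in G2/M. The part of these differences, and of free RNA in the droplets, in the phase calls and ratios was not tested.

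Counts past 1.5-fold within phases can be read against all genes measured in the same cells. In G1, 2 of 33 genes were lower and 3 higher, where 27.8% and 4.49% of all were. In S, 3 of 35 were lower and 2 higher, where 17.4% and 7.63% were. In G2/M, 5 of 35 were lower and 0 higher, where 8.99% and 4.87% were.

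**Figure D2:**
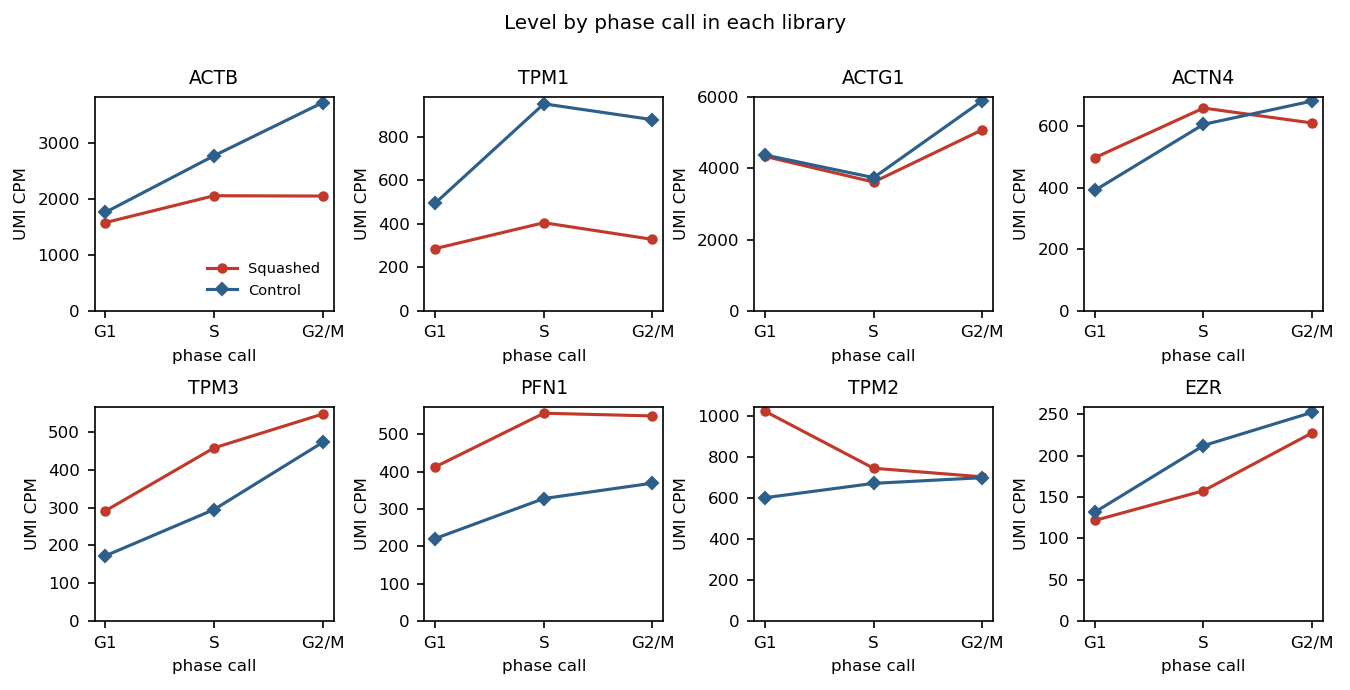
Each panel shows the level of 1 gene in CPM, from 0, in cells called G1, S and G2/M of the Squashed and Control libraries, with S resting on 90 Squashed and 70 Control cells. ACTB reaches 2053 CPM in Squashed and 3728 CPM in Control cells called G2/M, while the lines of EZR run close together.

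Cells were also divided by the number of genes seen at 2000 UMIs, at bounds of 748 and 862 genes that part all cells of both libraries into 3 equal classes. The class with fewest genes held 45.4% of Squashed and 22.0% of Control cells, and that with most genes 23.1% and 43.1%. TPM1 had log2 ratios of -1.22, -1.48 and -0.93 in cells with fewest, middle and most genes, and ACTB had -0.70, -0.73 and -0.50. PFN1 was higher in each class, at 0.62, 0.60 and 0.84. VASP had -1.04, -0.68 and -0.45, the first below 20 CPM in both libraries.

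In cells with fewest genes 3 of 31 measured genes were past 1.5-fold lower and 4 higher, where 9.25% and 11.3% of all were. In the middle class 4 of 35 were lower and 2 higher, where 9.62% and 6.35% were, and in cells with most genes 1 was lower and 1 higher, where 9.23% and 4.83% were. Over the 6 classes of phase and gene number, 16 of the 35 genes kept 1 direction, among them the 5 past 1.5-fold and TMSB10, TPM2, TPM3, ZYX and PXN. VCL did not, with -0.70 in S and 0.65 in cells with fewest genes. The classes divide the same cells by phase and again by gene number, so they are not separate checks. No such share over all measured genes is given, so whether 16 of 35 is many or few was not tested. TAGLN had 1.67 (1.11 to 2.25) in cells with most genes, where it was below 20 CPM in both libraries (73 UMIs in Squashed and 43 UMIs in Control cells), and -0.54 (-0.95 to -0.13) in those with fewest.

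**Figure D3:**
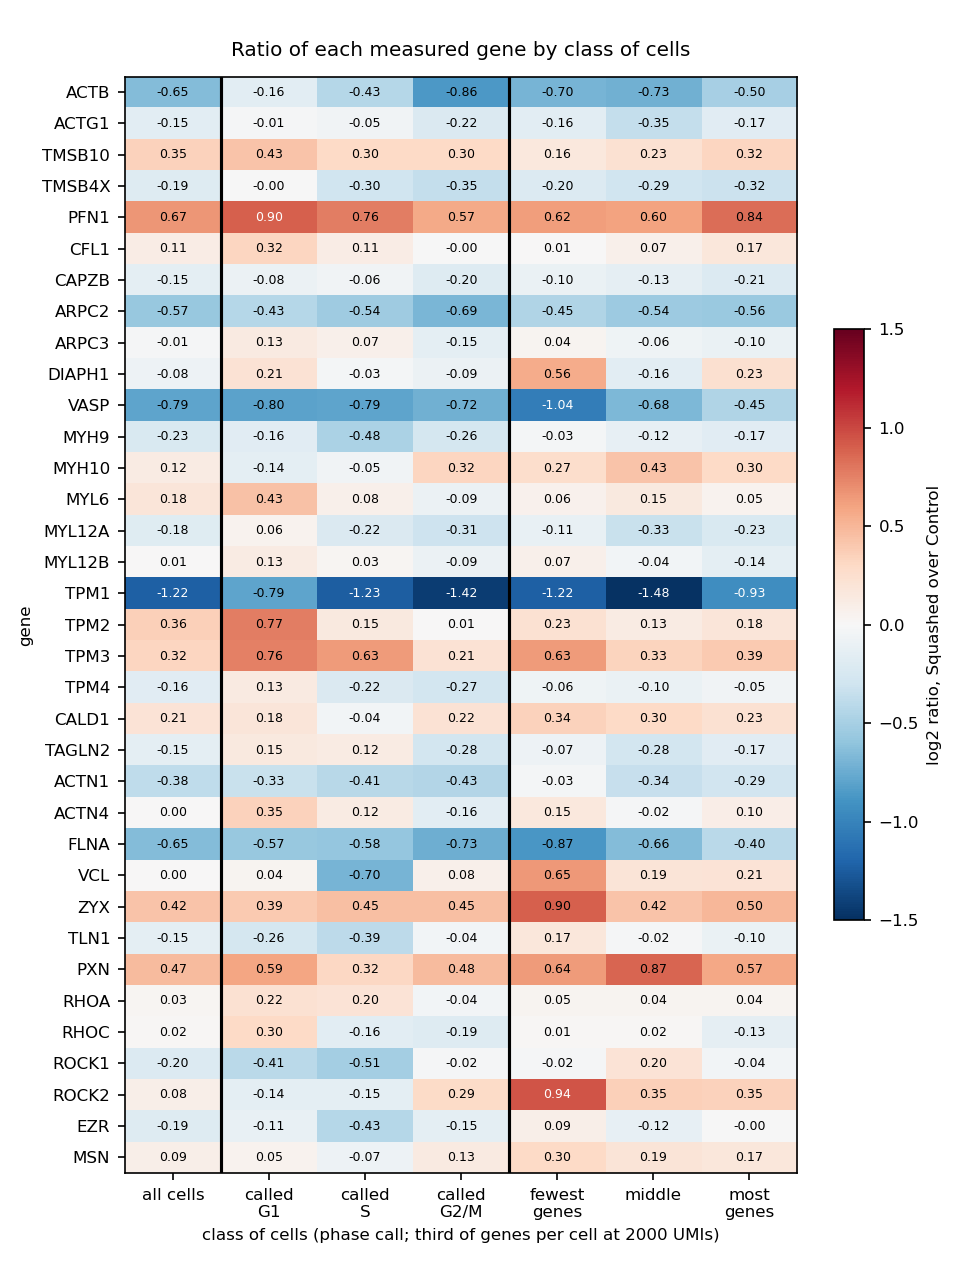
Rows are the genes and columns are all kept cells, the 3 phase calls and the 3 classes of genes per cell at 2000 UMIs, and colour gives the log2 ratio of Squashed over Control. TPM1, VASP, FLNA, ARPC2 and ACTB are below 0 in every column and PFN1 is above 0 in every column.

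Values in single cells showed where in the range of a gene the libraries parted. For this, 906 Squashed and 1190 Control cells with at least 10000 UMIs were thinned to 10000. The quartiles of ACTB were 13, 18 and 23 UMIs in Squashed cells and 16, 29 and 40 UMIs in Control cells. At 40 UMIs or more lay 13 Squashed cells (1.43%, 0.77 to 2.44), 8 of them called G2/M, and 307 Control cells (25.8%, 23.3 to 28.4), 278 of them called G2/M. The bound of 40 UMIs is the upper quartile of Control cells, so the share of Control cells past it was set by that choice. The upper part of the ACTB range of Control cells was nearly empty in the Squashed library, where the ACTB level was lower. In cells called G1 the median was 14 ACTB UMIs in both libraries, and in cells called G2/M it was 19 in Squashed and 37 in Control. The variance over the mean was 3.52 for ACTB in Squashed and 8.44 in Control cells, where ACTG1 had 8.22 and 8.34.

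The upper range of TPM1 was also thinly filled in the Squashed library, with quartiles of 1, 3 and 4 UMIs in Squashed cells and 3, 6 and 10 UMIs in Control cells. At 10 TPM1 UMIs or more lay 27 Squashed cells (2.98%, 1.97 to 4.31), 10 of them called G2/M, and 333 Control cells (28.0%, 25.4 to 30.6), 265 of them called G2/M. This bound too is the upper quartile of Control cells and set their share. In cells called G1 the median of TPM1 was 2 UMIs in Squashed and 3 UMIs in Control cells. For ACTB the medians of that phase were equal. Its lower and upper quartiles there were 10 and 20 UMIs in Squashed and 9 and 22 UMIs in Control cells. PFN1 had quartiles of 3, 5 and 7 UMIs in Squashed and 2, 3 and 4 UMIs in Control cells, a difference at each quartile. The median of TMSB10 was 47 UMIs in Squashed and 36 in Control cells, and that of TMSB4X 32 and 39. The highest TAGLN value was 6 UMIs among Squashed and 26 among Control cells. Cells of a library are not replicates, and the intervals cover counting of cells alone.

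**Figure D4:**
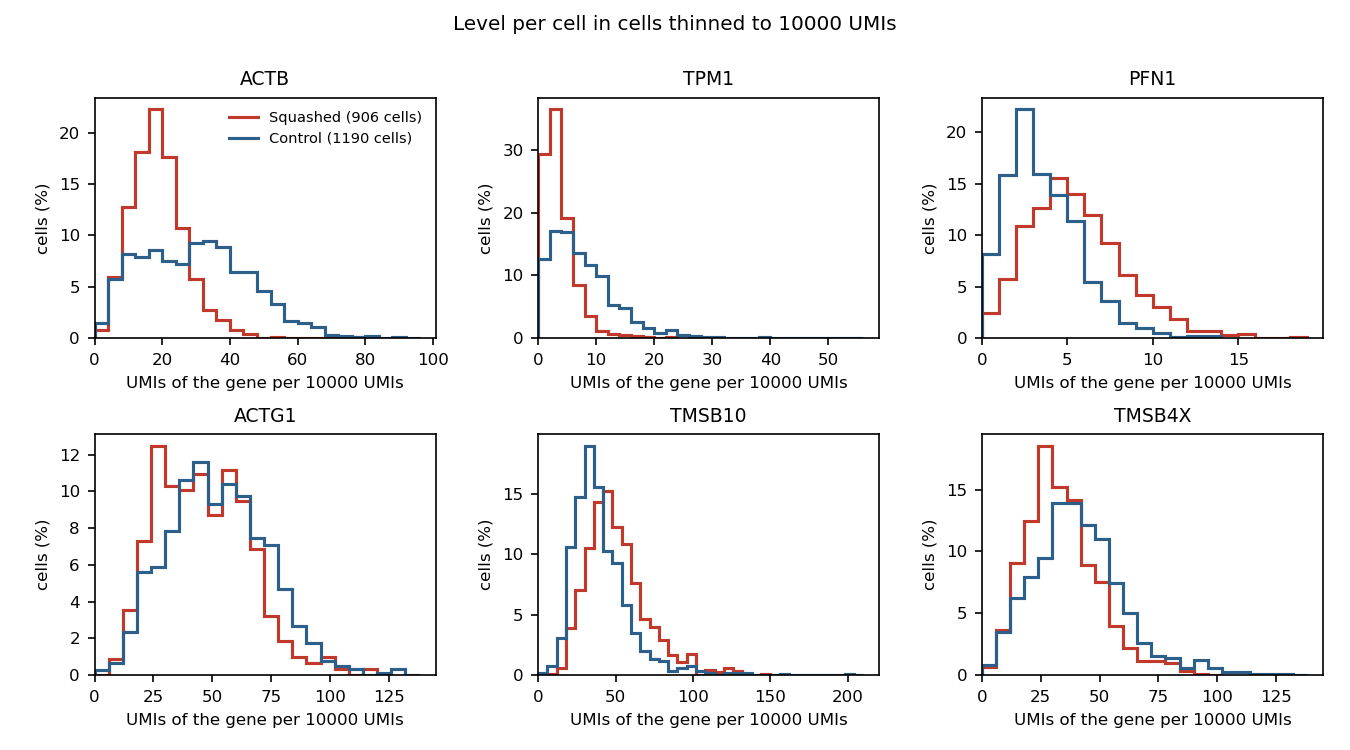
Each panel shows the share of cells (%) by the UMIs of 1 gene at 10000 UMIs per cell, in 906 Squashed and 1190 Control cells. For ACTB and TPM1 the Control outline extends farther to the right, with medians of 18 and 3 UMIs in Squashed and 29 and 6 UMIs in Control cells, and for PFN1 and TMSB10 the Squashed outline lies to the right.

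In the same cells the listed genes varied together less in the Squashed library. Pairs of other genes were not set beside them, so whether the difference is particular to these genes was not tested. Over 120 pairs of the 16 genes with a mean of at least 3 UMIs, the median Pearson r across cells was 0.13 in Squashed and 0.23 in Control cells, and 9 and 34 pairs reached 0.3. ACTB and TPM1 had r of 0.35 in Squashed and 0.58 in Control cells. ACTB and ACTG1 had 0.26 in Squashed and 0.57 in Control cells, and ACTB and CFL1 had 0.34 and 0.55. All 15 pairs with ACTB had a lower r in Squashed cells, as did 93 of the other 105. MYL6 and TPM2 went the other way, with 0.43 in Squashed and 0.33 in Control cells.

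Within cells called G2/M the median over all pairs was 0.10 in 493 Squashed and 0.14 in 682 Control cells, closer than over all phases. Pairs with ACTB ranged widely there. ACTB and ACTG1 had r of 0.16 in Squashed and 0.55 in Control cells of that phase, and ACTB and TPM1 had 0.27 and 0.46. ACTB and MYL6 had 0.25 in Squashed and 0.27 in Control cells, and ACTB and TMSB10 had 0.094 and 0.11. Within cells called G1 the median over all pairs was 0.16 in 356 Squashed and 0.17 in 456 Control cells. ACTB and ACTG1 had 0.22 in Squashed and 0.40 in Control cells of that phase, and ACTB and TPM1 had 0.38 and 0.45. Of the partners of ACTB, ACTN4 (0.44 and 0.40) and TPM3 (0.23 and 0.13) had a higher r in Squashed cells called G1. All its other partners had a lower one. The correlations are a description: cells share a library and a depth, and ACTB had a mean of 18.4 UMIs in Squashed and 29.2 UMIs in Control cells, so that counting noise weighs differently on r. The part of that noise was not tested.

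**Figure D5:**
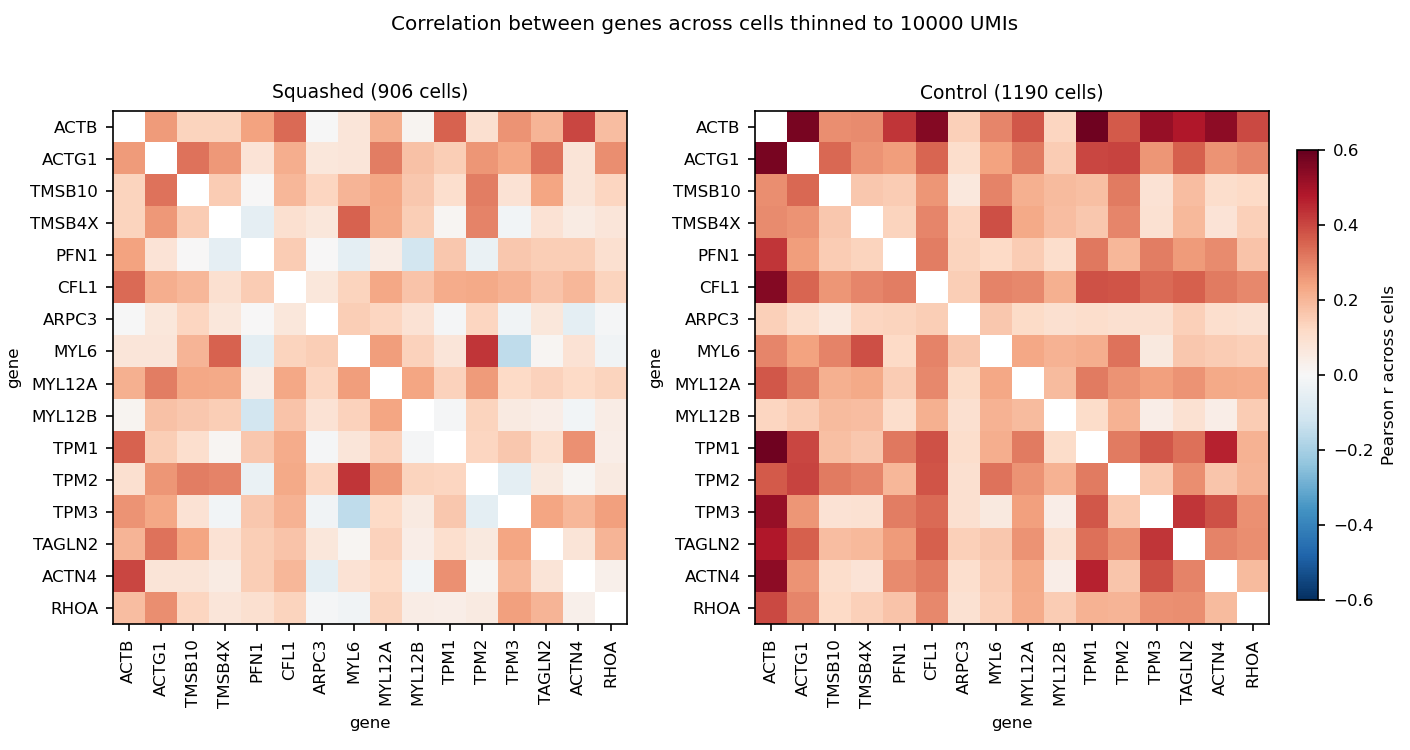
Pearson r of log2(UMIs + 1) across cells thinned to 10000 UMIs, for 16 genes in 906 Squashed cells (left) and 1190 Control cells (right). ACTB and TPM1 have 0.35 in the Squashed and 0.58 in the Control panel, and the ACTB row is paler in the Squashed panel.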

How the data were processed

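Single-cell RNA was captured with the 10x Chromium 3.1 chemistry, per the labels' design text. The authors deposited raw UMI counts per gene and barcode, aligned to GRCh38 with Cell Ranger, whose version reads 4.0.0 per the file headers and 5.0.1 per the labels' design text. The submitters' processing notes name R 4.3.2. How barcodes were called cells was not stated in any source used.

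Barcodes under 1000 UMIs, under 500 genes or over 20% mitochondrial UMIs were dropped, which left 61.6% of 3132 Squashed and 74.0% of 2574 Control barcodes. UMIs were summed per library and divided by the total to give CPM; log2 ratios used a prior of 0.5 count. Measured means 20 CPM or more in either library. Intervals are Clopper-Pearson and cover counting error alone, except that of the median over genes, which rests on the ranks of the ratios. Scrublet marked 16 cells of each library as doublets, and these stayed in. Phases were scored in scanpy 1.11.5 from 43 S and 54 G2/M genes, written from the standard lists. Positions and lengths came from GENCODE 44. Other tools were numpy 2.4.6 and scipy 1.17.1 in Python 3.11.15, and edgeR 4.0.16 in R 4.3.3 for TMM factors alone. The ratio step was tested on simulated data.

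Values by library were to be given for genes past 1.5-fold, the actins, MYL12A, MYL12B and the thymosins, and for up to 3 measured genes of each pathway role with the largest absolute log2 ratio. PFN2, ARPC1A, ARPC4, ARPC5, ACTR2, ACTR3, SRF, MRTFA and MRTFB, and the classes and pairs singled out, were chosen after their values had been seen. So were the bounds of 40 ACTB and 10 TPM1 UMIs, the upper quartiles of Control cells. The genes and lists were themselves chosen with earlier results of these data known. Some pathway genes that this rule names are not reported here. Alternatives changed the scaling, the total, the cell filter, the depth, the weight of cells, the doublets and the minimum level.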

Additional observations from a re-analysis of the deposited data

How the results depend on the processing

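Across 10 alternatives, 327 of 350 log2 ratios of the 35 measured genes kept their sign. That count includes the alternatives of the minimum level, which leave each ratio as it is, so no sign could change there. The 11 genes with a change of sign lay within 0.152 of 0. The log2 ratio ranged over -1.36 to -1.07 for TPM1, -1.05 to -0.64 for VASP, -0.75 to -0.50 for ACTB, -0.84 to -0.38 for FLNA and 0.55 to 0.82 for PFN1. TMM factors put the median of all measured genes at 0.03 and reversed the summed log2 ratio to 0.10, with 2 of the 37 genes lower (ACTB and FLNA no longer passed), 2 higher (PXN was added) and 2 other pathway genes higher. The summed ratio also reversed, to 0.012, with mitochondrial and ribosomal protein genes left out of the total. It was -0.0060 with transcripts up to 500 nt left out, -0.10 with cells of at least 3000 UMIs, 1000 genes and at most 15% mitochondrial UMIs, -0.062 with no cell filter and -0.045 as a mean of per-cell CPM. The gap between the median of the 35 genes and that of all genes, 0.121, was 0.069 under the stricter filter, 0.012 at a minimum of 50 CPM and 0.103 to 0.169 otherwise. ARPC2 became a lower call with no cell filter, the stricter filter, thinned cells and the mean of per-cell CPM. Cells thinned to 2000 UMIs and the mean of per-cell CPM each left 0 genes higher. With no minimum level 2 genes were higher, MYL9 being added, and 1 other pathway gene was higher, as under the stricter cell filter. A minimum of 50 CPM tested fewer genes, left 5 other pathway genes lower and dropped VASP. Apart from that minimum, the cause was not tested. No paired analysis was possible because each group has 1 library and the labels give no replicate numbers; no library could be left out either. Counting error limits genes near 20 CPM most.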
